A study of Homo sapiens with 40 samples.

Results

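The HOX genes encode homeodomain transcription factors that set position along the body axis. In humans they lie in clusters named HOXA, HOXB, HOXC and HOXD, and genes with the same number in different clusters, called paralogues, descend from a common ancestor. Genes with low numbers are used towards the head and genes with high numbers towards the tail, and the order on the chromosome follows the order of use, a property known as collinearity. HOX proteins bind DNA together with TALE-class homeodomain proteins of the PBX, MEIS and PKNOX families. The clusters also hold genes for the microRNAs miR-10 and miR-196, which lie between the protein genes and pair with HOX mRNAs.

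The mRNAs of the HOX clusters were examined across all groups of a study of translational control. Every counted gene symbol made of HOX, a cluster letter from A to D and a number was taken, which gave 39 genes of 55765 counted symbols. The set was chosen by a measured value, the lower level of HOXB3 mRNA in subpolysomal RNA after siRNA against CNOT1. Values of that comparison are therefore given below as a description. Of the 39 genes, 31 had a mean of at least 50 counts over the 40 libraries and are called well-counted. They were 11 of 11 HOXA genes, 9 of 10 HOXB genes, 5 of 9 HOXC genes and 6 of 9 HOXD genes. Just above this limit stood HOXA2 with a mean of 53.15 counts and HOXD9 with 104 counts, and just below it HOXC10 with 48.7 and HOXC11 with 38.6 counts. HOXB1, HOXC5, HOXC12, HOXD1, HOXD4 and HOXD12 were the other genes under the limit.

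All libraries were poly(A)-selected RNA-Seq of HEK293, an established line of human embryonic kidney origin. For RNA immunoprecipitation (IP), lysates of unmodified cells were incubated with antibodies to eIF4A1, eIF4A2 or DDX6, and the recovered RNA was set against total RNA, in 3 libraries of each kind. eIF4A1 is a helicase of translation initiation, eIF4A2 its close paralogue and DDX6 a helicase of mRNA repression and decay, and a mock IP was not analysed here. For the sucrose gradients, cells were transfected with a control siRNA or with 1 siRNA targeting CNOT1, which forms the backbone of the Ccr4-Not deadenylase complex, and were lysed 48 h later. RNA came from the lysate cleared of nuclei (input), from fractions 1 to 5 combined (subpolysomal) and from fractions 6 to 11 combined (polysomal), 4 libraries of each for either siRNA. A last set compared a control siRNA with combined siRNAs to TNRC6A and TNRC6B, adaptors between Argonaute proteins and Ccr4-Not, in 2 libraries each. The labels number replicates but do not say that they are separate cultures, so p-values measure the spread between these libraries.

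Libraries held 15.4 to 46.0 M counts (M, mega). Levels are given as CPM, counts scaled to the normalised size of each library. CNOT1 mRNA was at 628 to 711 CPM in input of control siRNA cells and at 36.8 to 41.4 in that of CNOT1 siRNA cells. In polysomal RNA, replicate 3 of both groups went against its label. CNOT1 was at 28.3 CPM in the library labelled control, whose 3 fellows had 470 to 501, and at 631 CPM in the library labelled CNOT1 siRNA, whose 3 fellows had 24.01 to 31.6. Polysomal results are given with both libraries as labelled and without both. TNRC6A was at 178 and 189 CPM with control siRNA and at 40.5 and 64.7 with TNRC6A/B siRNA, and TNRC6B at 67.6 and 73.1 and at 17.7 and 26.3. The 6 HEK293 markers (NEFM, NEFL, INA, VIM, LIN28B, PAX2) summed to 502.8 to 7756 CPM per library, PAX2 averaged 0.187 to 1.26 CPM, and the summed level of PTPRC, ALB, CDH5 and MYH7 reached at most 0.519 CPM in any library.

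The sequences of the cluster microRNAs matter here because eIF4A2, CNOT1 and TNRC6 act in repression by microRNAs. Mature sequences are given from RefSeq (GRCh38.p14), 5′ to 3′, with the seed, bases 2 to 8, in capitals. The MIR10A gene and the MIR196A1 gene lie in the HOXB cluster, MIR196A2 in the HOXC cluster and MIR196B in the HOXA cluster. The miR-196 forms share 1 seed, and miR-10a has another.
hsa-miR-10a-5p: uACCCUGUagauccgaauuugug
hsa-miR-196a-5p: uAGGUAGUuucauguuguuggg
hsa-miR-196b-5p: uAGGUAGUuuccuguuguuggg
Mature microRNAs were not measured in these poly(A)-selected libraries.

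The 7 bases complementary to the miR-196 seed, ACTACCT in DNA letters on the mRNA strand, occurred in the 3′UTR of 7 of the 31 well-counted mRNAs, or 22.6%, against 7% of 19400 genes with an annotated 3′UTR. The 7 were HOXA5, HOXA7 with 4 matches, HOXA9 with 2, HOXB6, HOXB7, HOXB13 and HOXC8 with 3. The match to the miR-10 seed, ACAGGGT, occurred in 9.68% of the well-counted mRNAs, HOXA3 and HOXB3 among them, against 12.5% of all genes. HOXB8 has no exact seed match for miR-196, but its 3′UTR holds the most extensive pairing of all. Opposite miR-196a the stretch at chr17:46690132-46690153 on the minus strand (hg19) makes 21 Watson-Crick pairs and 1 G:U pair over 22 bases, and no other of 19297 3′UTRs scanned reached as many Watson-Crick pairs. Both stretches below are written 5′ to 3′ as mRNA, with the bases opposite the seed in capitals. The HOXB3 stretch lies at chr17:46626829-46626851 on the minus strand (hg19).
HOXB8, opposite miR-196a: cccaacaacaugaaACUGCCUa
HOXB3, opposite miR-10a: ugacuuaacgugaaaACAGGGUa
A match describes these letters and not a site that was shown to be used. Over all 31 well-counted mRNAs, 27 or 87.1% held at least 1 ATTTA pentamer in the 3′UTR against 67.6% of all genes, the median coding length was 873 nt against 1254 nt, and the median 5′UTR had 88 nt and 52.8% GC against 128 nt and 64.6%.

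HEK293 cells held mRNA from all 4 clusters, and the 5 highest levels per length were of posterior genes, although other posterior genes such as HOXD9 ranked low. Levels between genes are compared as CPM per kb of the canonical transcript. In control siRNA input, HOXD13 stood highest at 31.8 ± 2.22 CPM per kb (SD, n = 4), followed by HOXA9, HOXA10, HOXB9 and HOXA11 at 23.8, 20.8, 20.8 and 15.7. HOXB6, HOXA5, HOXD10, HOXC4 and HOXB3 came next, with means from 12.8 down to 6.01. The lowest well-counted gene was HOXA2 at 0.545 ± 0.0892 CPM per kb (SD, n = 4). Of the 30 pairs of neighbours in this order, 20 had overlapping ranges over the 4 libraries, so that the fine order is not resolved. The ranges of HOXA10 and HOXB9, for example, overlapped. Total RNA of the IP experiment, normalised apart, had HOXD13, HOXB9, HOXA10 and HOXA9 at 27.4 to 30.4 CPM per kb. HOXB1 and HOXC12 were at or near 0 in total RNA, with means of 0.00588 and 0.0031 CPM per kb.

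**Figure D1:**
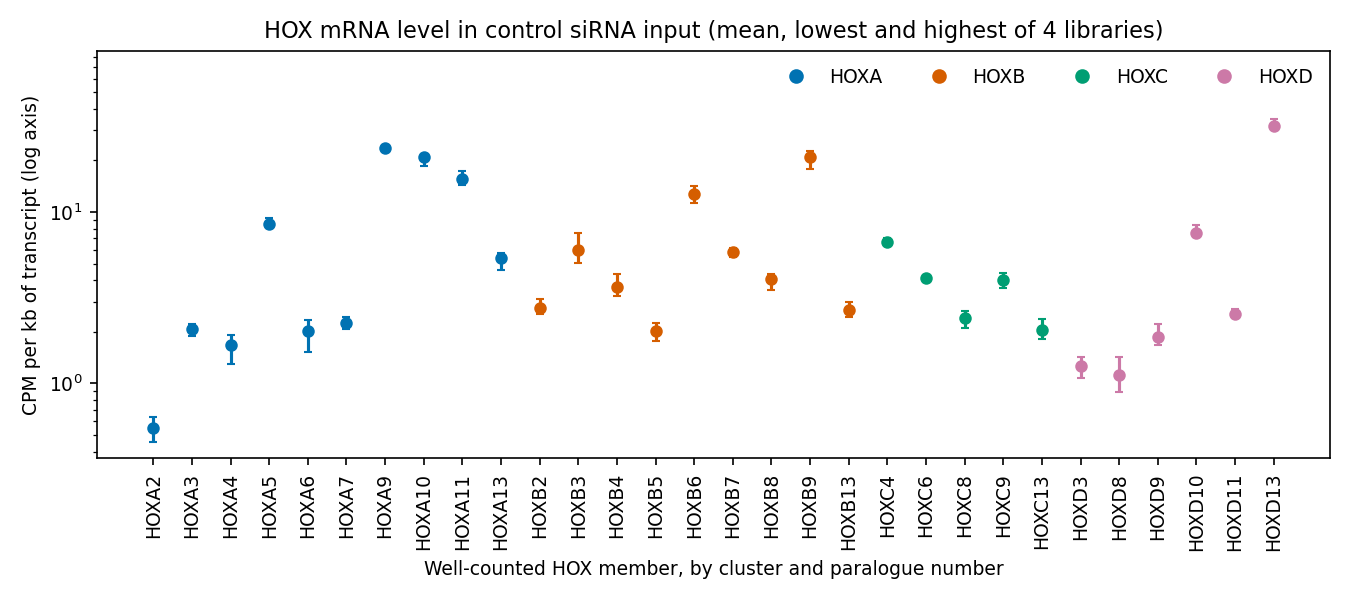
Level of 30 well-counted HOX mRNAs in control siRNA input, as CPM per kb of the canonical transcript on a log axis, by cluster and paralogue number. Points are means of 4 libraries and bars run from the lowest to the highest library. HOXD13 lies highest at 31.8 and HOXA2 lowest at 0.545.

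The first question was how HOX mRNAs were represented in RNA that came down with each helicase. Most that differed from total RNA were higher in the IP, and few were lower. The summed level of the 39 genes was 627 to 693 CPM in total RNA, 916 to 1163 in the eIF4A1 IP, 820 to 1137 in the eIF4A2 IP and 913 to 1085 in the DDX6 IP. Each IP library lay above every total RNA library.

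With eIF4A1, 18 of 36 tested HOX mRNAs were called higher by edgeR's quasi-likelihood test with a Benjamini-Hochberg adjusted p (false discovery rate, FDR) under 0.05, and 3 were called lower. Among all 17474 genes tested, 26.1% were called higher and 26.5% lower. With eIF4A2, 17 were called higher and 2 lower, against 24.5% and 25.8% of all genes. With DDX6, 16 were called higher and 5 lower, against 22.7% and 23.3%. The comparisons share their total RNA libraries. The median log2 fold change of the 31 well-counted mRNAs was 0.56 for eIF4A1, 0.42 for eIF4A2 and 0.49 for DDX6, and that of all genes tested was 0.04, 0.01 and 0.01. The HEK293 markers moved the other way, with 5, 5 and 4 of 6 called lower and NEFM at -2.59 ± 0.56 with eIF4A1. Their part in the HOX values was not tested.

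HOXB2, an anterior gene that acts in hindbrain patterning, had the highest value of the well-counted mRNAs in every IP. Its level was 7.71, 7.45 and 7.61 CPM in total RNA replicates 1 to 3. The eIF4A1 IP held 22.7, 27.2 and 22.1 CPM, the eIF4A2 IP 17.3, 24.3 and 19.8, and the DDX6 IP 16.03, 23.3 and 18.2. No IP library overlapped total RNA, and replicate 2 was highest in all 3 IPs. The log2 fold changes were 1.66 ± 0.17 (SE), 1.43 ± 0.17 and 1.34 ± 0.17, with edgeR FDR of 7.58e-06, 1.97e-05 and 6.51e-05.

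HOXC6, a central gene of the trunk, was at 11.8, 12.9 and 14.1 CPM in total RNA and at 24.1 to 34.9 in the 9 IP libraries. Its log2 fold changes were 1.35 ± 0.13 for eIF4A1, 1.05 ± 0.13 for eIF4A2 and 1.19 ± 0.13 for DDX6. HOXD8 gave 1.28, 1.06 and 1.19, HOXB9 1.07, 0.67 and 0.95, and HOXA10, a gene of the reproductive tract and limb, 0.98, 0.81 and 0.99, all called higher. HOXA9, HOXA13, HOXB8, HOXB13, HOXC11 and HOXC13 also passed the test in all 3 IPs. HOXA13 kept the call in 8 of 11 alternatives with eIF4A1 and in 7 with DDX6, and HOXC13 in 8 with eIF4A2, while the other calls of these 6 genes held in at least 9. HOXA3 and HOXA4 were called higher with eIF4A1 and DDX6, and HOXA5 and HOXA6 with eIF4A1 and eIF4A2. HOXA5 kept its eIF4A1 call in 7 of 11 alternatives and its eIF4A2 call in 9. HOXD13 was called higher with eIF4A2 at 0.58 ± 0.23 and with DDX6, and HOXB5 with eIF4A2 at 0.42 ± 0.16, and both lost the eIF4A2 call in at least 4 of 11 alternatives. HOXC8 was called higher with eIF4A1 at 0.76 ± 0.23 and DDX6 at 0.85 ± 0.23.

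HOXD12 and HOXD1, which are not among the well-counted genes, were also higher. HOXD12 had 6 to 11 counts in total RNA libraries and 25 to 57 in eIF4A1 and eIF4A2 IP libraries. Its log2 fold change was 1.57 ± 0.33 for eIF4A1 and 2.09 ± 0.33 for eIF4A2, with edgeR FDR of 0.00162 and 0.000169. HOXD1 gave 0.97 ± 0.31, 0.91 ± 0.32 and 1.12 ± 0.31, called in all 3. It kept the call in 9 of 11 alternatives with eIF4A1, in 8 with eIF4A2 and in all 11 with DDX6.

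The mRNAs called lower included neighbours of ones called higher. HOXB4, a regulator of blood stem cells, was at 12.3, 9.03 and 12.2 CPM in total RNA, and its 9 IP libraries ran from 4.42 to 8.24, below every total RNA library. The log2 fold change was -0.59 ± 0.20 for eIF4A1, -0.84 ± 0.21 for eIF4A2 and -0.63 ± 0.20 for DDX6. HOXC9 was at 11.5, 12.7 and 9.40 CPM in total RNA and at 2.11 to 8.14 in the IPs, with replicate 3 lowest in each IP. It was called lower with eIF4A1 at -0.97 ± 0.37 and eIF4A2 at -1.25 ± 0.38, and its value with DDX6 was -0.92 ± 0.37 (edgeR FDR 0.0588). Leaving out replicate 3 of the eIF4A1 IP gave HOXC9 -0.77 with an edgeR FDR of 0.133, and the eIF4A1 calls of HOXB4, HOXC9 and HOXD9 were each lost under at least 4 of 11 alternatives. Without total RNA replicate 1 or 3 or eIF4A1 IP replicate 3, no HOX mRNA was called lower with eIF4A1. The calls of HOXB4 and HOXC9 with eIF4A2 held under all 11.

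In the DDX6 IP, the HOXD cluster divided. HOXD8 and HOXD13 were called higher, at 1.19 ± 0.18 and 0.70 ± 0.23, and HOXD3, HOXD9, HOXD10 and HOXD11 were called lower. HOXD9 was at 5.82, 5.96 and 7.502 CPM in total RNA and at 3.03, 3.08 and 2.96 in the DDX6 IP, a log2 fold change of -1.09 ± 0.19 (edgeR FDR 0.00048). HOXD10 was at -0.67 ± 0.16 and HOXD3 at -0.71 ± 0.22, the latter not called without total RNA replicate 3, at -0.58, or DDX6 IP replicate 2, at -0.61. The DDX6 call of HOXB4 was lost without total RNA replicate 1 or 3 or DDX6 IP replicate 2 or 3. The call of HOXD11, at -0.54 ± 0.19, was lost whenever any of the 6 compared libraries was left out. HOXB3 passed no test in any IP, at 0.14 ± 0.15, -0.02 ± 0.15 and -0.25 ± 0.15, and its libraries overlapped total RNA in each.

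Same-numbered libraries of this experiment deviated together, and with the replicate number as a block every call above held and more were made. HOXA7 at -0.68 and HOXD11 at -0.42 were then also lower with eIF4A2, which made 4, and HOXA3 and HOXA4 were also higher. With eIF4A1, the block added HOXA11, HOXC4, HOXC10 and HOXD13 as higher and HOXD10 as lower. With DDX6 the genes it added included HOXA5, HOXA6, HOXA11, HOXC4 and HOXC10 as higher and HOXC9, at -0.97, as lower. No share of all genes under the block is given here, so nothing is read from the number of added calls.

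**Figure D2:**
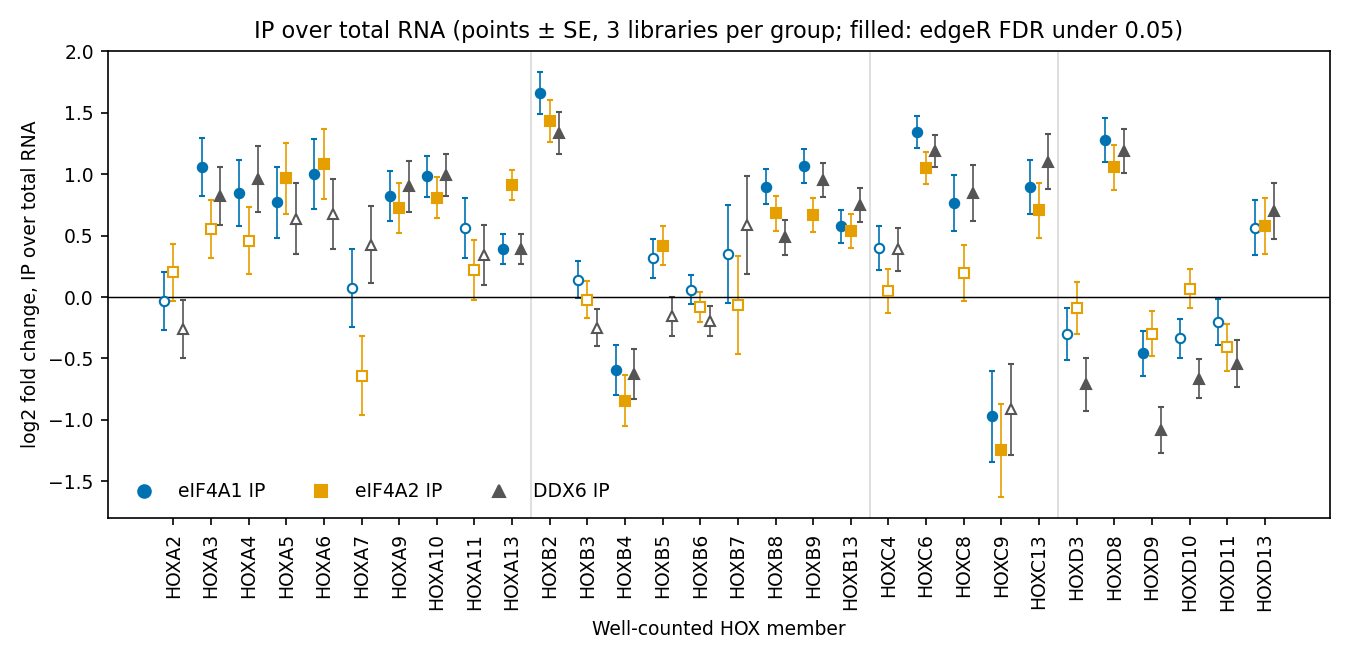
log2 fold change of each IP over total RNA for 30 well-counted HOX mRNAs, by cluster, with 3 libraries per group. Points ± SE, filled where edgeR FDR was under 0.05. HOXB2 lies highest in each IP, HOXB4 and HOXC9 lie below 0 in all 3, and HOXD3, HOXD9, HOXD10 and HOXD11 are filled below 0 for DDX6.

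The IPs were then compared with each other. Between eIF4A2 and eIF4A1, edgeR called 0 HOX mRNAs in either direction, against 0.973% of all genes called higher and 0.0858% lower. At an unadjusted p under 0.05 there were 2 higher and 5 lower, and DESeq2 called 1, HOXA13, higher. With the replicate block edgeR called HOXA13 at 0.52 and HOXD10 at 0.41 higher with eIF4A2, and HOXA7, HOXB9, HOXC6, HOXC8 and HOXC10 lower. No share of all genes is given here for the unadjusted p, DESeq2 or block counts, so nothing is read from them. HOXB3 differed by -0.16 ± 0.15 (edgeR FDR 0.607).

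Between eIF4A2 and DDX6, 6 HOX mRNAs were called higher with eIF4A2 and 2 lower, against 9.82% and 11.3% of all genes. HOXD9, HOXD10, HOXD4, HOXD12, HOXA13 and HOXB5 were higher. HOXD10 was at 25.2, 24.3 and 23.7 CPM in the eIF4A2 IP and at 14.2, 13.70 and 16.1 in the DDX6 IP, with no overlap and a log2 difference of 0.73 ± 0.16 (edgeR FDR 0.00836). HOXD9 differed by 0.79 ± 0.19, HOXA13, a gene of the distal limb and hindgut, by 0.52 ± 0.12, and HOXB5 by 0.57 ± 0.16. HOXB5 kept this call in 6 of 11 alternatives and HOXA13 in 9. HOXA7 and HOXC10 were lower, at -1.07 ± 0.32 and -0.87 ± 0.28. With the replicate block the number lower rose to 7 and the number higher was 7, for which no share of all genes is given here. The calls of HOXA7 and HOXC10 were lost without eIF4A2 IP replicate 1 or 3 and without DDX6 IP replicate 1 or 2, and that of HOXC10 also without DDX6 IP replicate 3. HOXD4 lost its call without any 1 of the 6 IP libraries. HOXB3 differed by 0.23 ± 0.15 (edgeR FDR 0.305).

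Of 9 TALE cofactors, 4 were called higher and 1 lower with eIF4A1, beside 26.1% and 26.5% of all genes. The counts were 5 and 1 with eIF4A2, beside 24.5% and 25.8%, and 4 and 0 with DDX6, beside 22.7% and 23.3%. PBX3 was higher by 1.56 ± 0.15, 1.56 ± 0.15 and 1.37 ± 0.15 on the log2 scale, and PBX2 was also called in all 3, at 1.49 with eIF4A1. PKNOX1 was the gene called lower, at -0.39 with eIF4A1 and -0.49 with eIF4A2. Of 22 noncoding transcripts of the clusters with a counted symbol, 15 were tested, and 6, 5 and 4 were called higher and 0 lower, to be read beside the same shares of all genes. HOTAIR, a long noncoding RNA of the HOXC cluster, gave 1.55 ± 0.24, 1.37 ± 0.24 and 1.17 ± 0.24.

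The gradient separates mRNAs carrying few or no ribosomes from those on polysomes. In control siRNA cells, HOXB2, HOXD3 and HOXA2 were among the HOX mRNAs with the lowest polysomal to subpolysomal ratios, and HOXB13 stood at the other end. Each library was scaled to its own size, so a ratio is relative to other mRNAs. It does not give the share of copies in a fraction. Of 34 tested HOX mRNAs, 3 were called higher in polysomal than in subpolysomal RNA and 12 lower, against 30.3% and 34.9% of 15500 genes. Without polysomal replicate 3, 4 were higher and 12 lower, against 31% and 36.8% of 15893 genes. Among the 6 well-counted anterior genes, with numbers 1 to 3, 5 were called lower and 0 higher, with a median log2 ratio of -1.93, HOXB3 included. Of 13 central genes, with numbers 4 to 8, 3 were lower and 1 higher at a median of -0.28, and of 12 posterior genes 3 were lower and 2 higher at a median of -0.28. The median over all genes tested was -0.06.

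HOXB2 was at 14.3, 13.67, 19.4 and 19.9 CPM in control subpolysomal RNA and at 3.67, 2.72, 2.74 and 3.87 in control polysomal RNA. The groups were far apart, and the log2 ratio was -2.44 ± 0.23 (edgeR FDR 5.57e-06). HOXB3 was at 53.2, 50.9, 62.7 and 63.8 CPM in subpolysomal and at 16.3, 12.1, 4.83 and 14.7 in polysomal RNA, the 4.83 being the library that went against its label. Its log2 ratio was -2.33, and -2.04 without replicate 3. Because HOXB3 prompted the choice of genes through the same subpolysomal libraries, these ratios are given as values only, although it is 1 of the 12 counted as lower. HOXD3 followed at -2.04 ± 0.23, HOXA2 at -1.81 ± 0.27, HOXB5 at -1.48 ± 0.36 and HOXA9 at -1.44 ± 0.19, and each of these remained called without replicate 3. HOXA3, HOXA13, HOXC4, HOXC11, HOXD8 and HOXD10 completed the 12. Without replicate 3 HOXC11 was not called, at -0.63 ± 0.29, and HOXD1 was called lower, at -0.97 ± 0.30.

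At the other end, HOXB13, the most posterior gene of its cluster and a factor of the prostate and hindgut, was at 4.03, 4.18, 4.05 and 4.96 CPM in subpolysomal and at 11.1, 11.4, 8.62 and 8.68 in polysomal RNA. Its log2 ratio was 1.14 ± 0.19 (edgeR FDR 0.00031), and it held its call under every alternative tried. HOXA11 at 0.56 ± 0.20 and HOXA7 at 0.51 ± 0.18 were also called higher, but lost the call without control polysomal replicate 1 or 2, and HOXA7 also without subpolysomal replicate 1. HOXB7, at 0.42 ± 0.23 with all libraries, was called higher at 0.58 ± 0.21 without replicate 3. HOXA7 is covered over 74.8% of its canonical exons by the antisense transcript HOXA-AS3, and the strand setting of the authors' counting was not given in the sources used here. Of 11 tested noncoding transcripts of the clusters, 10 were called lower in polysomal RNA and 0 higher, beside 34.9% and 30.3% of all genes, HOXB-AS1 at -3.63 ± 0.52 and HOTAIRM1 at -3.06 ± 0.31 being the lowest.

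**Figure D3:**
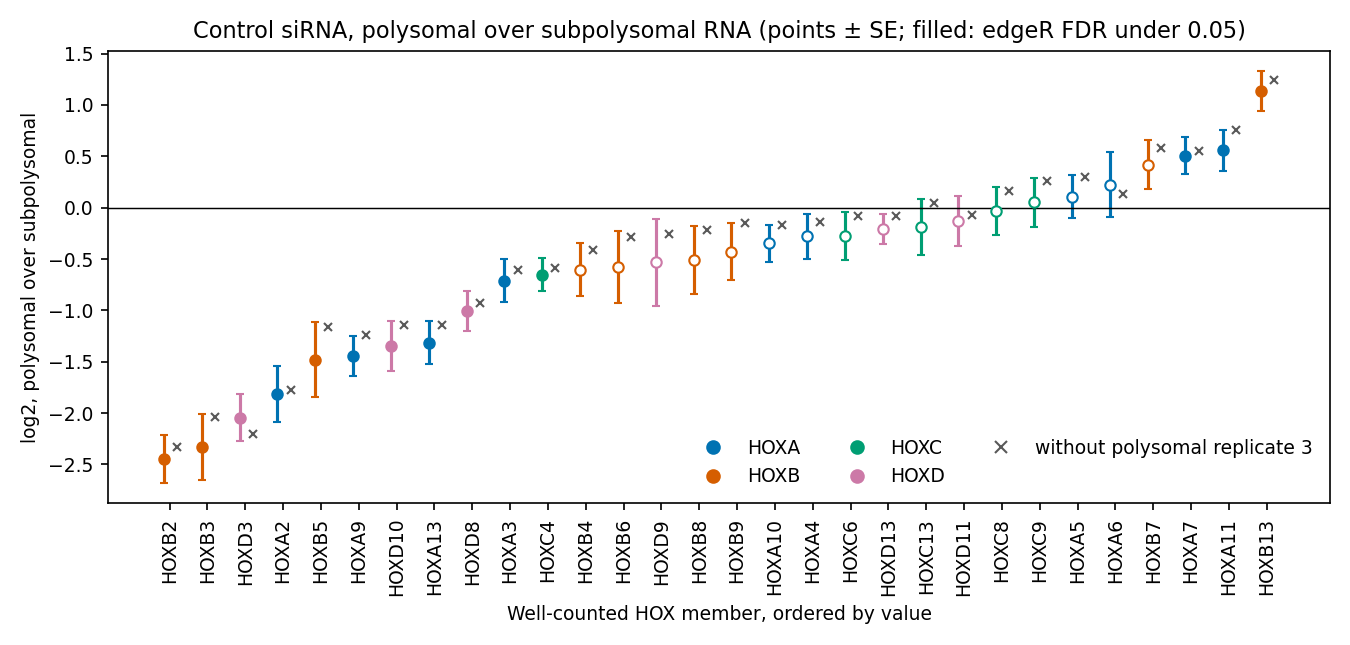
log2 ratio of polysomal to subpolysomal RNA with control siRNA for 30 well-counted HOX mRNAs, ordered by value, with 4 libraries per group. Points ± SE are filled where edgeR FDR was under 0.05, and crosses give the value without polysomal replicate 3. HOXB2, HOXB3, HOXD3 and HOXA2 lie lowest and HOXB13 highest.

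With CNOT1 siRNA, 5 HOX mRNAs were called higher in polysomal RNA and 9 lower, against 32.4% and 34% of 15654 genes. Without replicate 3 the numbers were 4 and 12, against 34.5% and 36.3% of 16148 genes. HOXB2 was again lowest at -2.03 ± 0.19, followed by HOXA2 at -1.23 ± 0.26, HOXD8 at -0.99 ± 0.19 and HOXA9 at -0.96 ± 0.17. HOXB3, again as a value only although it is 1 of the 9, was at -0.93, and at -1.52 without polysomal replicate 3. HOXB13 was at 0.71 ± 0.18, HOXA11 at 0.55 ± 0.16, HOXA5 at 0.44 ± 0.16, HOXA7 at 0.46 ± 0.18 and HOXC9 at 0.59 ± 0.22. The call of HOXC9 was lost without polysomal replicate 3, at 0.41 ± 0.18, as it was without subpolysomal replicate 1 or 3. HOXA7 lost its call in 6 of the 8 fits that left out 1 library and HOXA5 in 2, those without subpolysomal replicate 3 or 4.

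Depletion of CNOT1 was then followed in input RNA. Most HOX mRNAs fell, and HOXB3, HOXB5, HOXB8 and HOXB6 had the lowest values. Of 35 tested, 24 were called lower and 3 higher, against 30% and 30.9% of 15686 genes. The median log2 fold change of the 31 well-counted mRNAs was -0.45 and that of all genes tested was -0.00. The summed level of the 39 genes ran from 453 to 499 CPM in control and from 324 to 372 in CNOT1-depleted cells, with no overlap. Of the 5 HEK293 markers tested, 4 were called lower and 1 higher, and their part in the HOX values was not tested. In whole-culture RNA, fewer cells with a transcript and less of it per cell cannot be told apart. The input libraries were not used to choose the genes. The authors took input RNA from an aliquot of the lysate that went onto the gradients, so a fall of HOXB3 in input was not independent of its choice.

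HOXB3, a gene of hindbrain segments, was at 16.5, 18.7, 24.8 and 19.2 CPM in control input and at 5.99, 6.46, 6.75 and 6.39 with CNOT1 siRNA. The log2 fold change was -1.62. These levels and the change are given as values only because of the shared lysates, although HOXB3 is counted among the mRNAs called lower. HOXB5 went from 4.198, 4.04, 3.47 and 3.30 CPM to 1.42, 1.34, 1.05 and 1.23, or -1.56 ± 0.14. HOXB6 went from 23.9, 21.1, 21.8 and 18.9 CPM to 8.59, 8.26, 6.82 and 8.13, or -1.42 ± 0.09.

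HOXB8 and HOXB9 were also called lower. HOXB8, whose 3′UTR holds the long miR-196 complement shown above, went from 9.01, 9.42, 9.14 and 7.59 CPM to 3.03, 3.45, 3.24 and 2.75, or -1.48 ± 0.11. HOXB9 went from 56.6, 58.5, 54.3 and 45.8 CPM to 22.5, 26.2, 23.2 and 23.8, or -1.15 ± 0.08 (edgeR FDR 1.31e-08). HOXB5, HOXB6, HOXB8 and HOXB9 held their call under the 13 alternatives tried.

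Other genes of the cluster had smaller changes, including genes that lie between HOXB3 and HOXB9. HOXB4, which lies between HOXB3 and HOXB5, was at -0.77 ± 0.14, HOXB7, between HOXB6 and HOXB8, at -0.36 ± 0.09 and HOXB2 at -0.38 ± 0.11, each called lower. HOXB13, which lies apart at the posterior end, was at -0.06 ± 0.09 and was not called. By cluster, 8 of 9 well-counted HOXB mRNAs, 5 of 5 HOXC, 7 of 11 HOXA and 3 of 6 HOXD were called lower, with median log2 fold changes of -1.15, -0.61, -0.39 and -0.36.

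The annotated HOXB3 gene runs from chr17:46626232-46682274 on the minus strand (hg19), across HOXB4 and HOXB5 and into HOXB6, because some of its transcripts start far upstream. Its exons cover 11.2% of the canonical HOXB6 exons and 2.2% of those of HOXB4, so that reads there lie in exons of both genes. How the authors' counting treated such reads was not given in the sources used here. HOXB8 and HOXB9 share no exon with another gene. The antisense transcript HOXB-AS3, which overlaps HOXB3, HOXB5 and HOXB6 on the opposite strand, changed by -1.57 ± 0.22 on the log2 scale (edgeR FDR 1.55e-05). How far these overlaps affected the counts was not tested.

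In the other clusters, HOXC8 and HOXC9 were both at -0.91 ± 0.12 and HOXC6 at -0.61 ± 0.10, while HOXC4 was at -0.24 ± 0.09. HOXD9 was at -1.15 ± 0.15, HOXD10 at -0.67 ± 0.08 and HOXD11 at -0.65 ± 0.11, next to HOXD13 at 0.16 ± 0.07 and HOXD3 at -0.07 ± 0.12, which were not called. With the replicate block, HOXD13 was called higher at 0.16. The posterior HOXA genes fell by like amounts, HOXA9 at -0.52 ± 0.06, HOXA10 at -0.45 ± 0.07, HOXA11 at -0.56 ± 0.07 and HOXA13 at -0.50 ± 0.11. Of the 24 calls, 16 held in each of the 13 alternatives, and HOXA3, HOXA4, HOXA13, HOXB2, HOXB7, HOXC4, HOXC11 and HOXC13 lost theirs in at least 1.

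HOXD1 and HOXD8 were among the mRNAs called higher. HOXD1, an anterior gene, had 11 to 16 counts in control input and 43 to 83 with CNOT1 siRNA. Its level went from 0.337, 0.359, 0.339 and 0.452 CPM to 1.30, 1.41, 2.17 and 1.64, a log2 fold change of 2.14 ± 0.23 (edgeR FDR 1.24e-06) that held under every alternative. HOXD1 is overlapped over 60.1% of its canonical exons by antisense transcripts including HAGLR, counted under its older symbol HOXD-AS1, which was itself called higher at 0.50 ± 0.12. HOXD8 was at 0.43 ± 0.14, and lost its call in a fit over all gradient libraries, at 0.42, without control input replicate 1, at 0.33, and without CNOT1 siRNA input replicate 4, at 0.39.

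**Figure D4:**
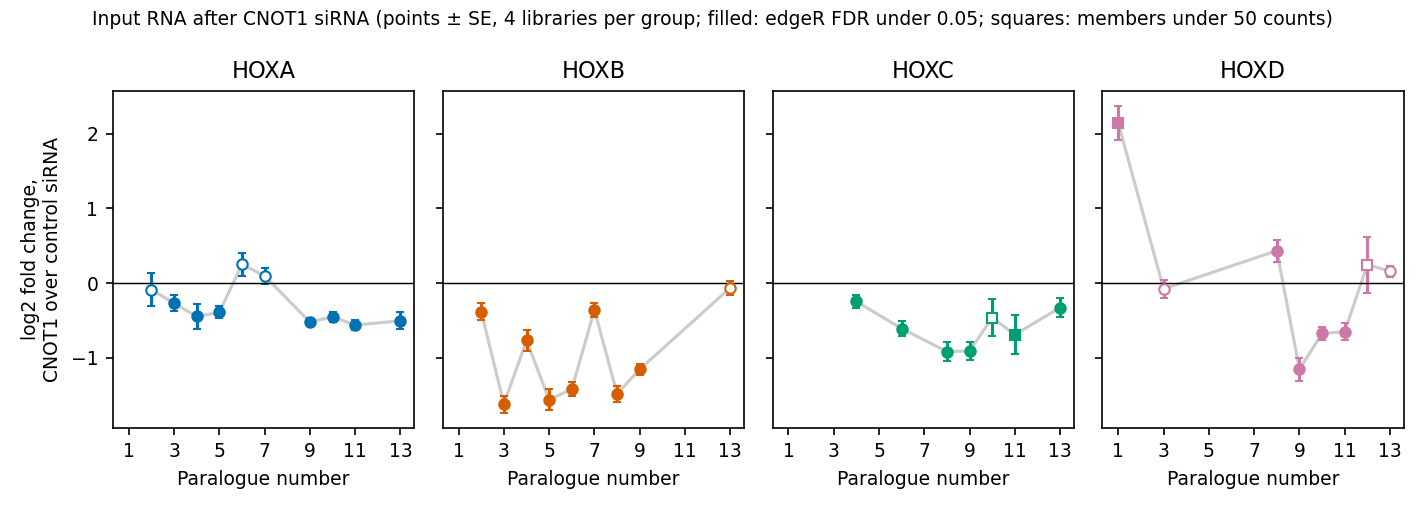
log2 fold change of HOX mRNAs in input RNA, CNOT1 over control siRNA, by paralogue number in each cluster, with 4 libraries per group. Points ± SE are filled where edgeR FDR was under 0.05, and squares are genes under 50 counts. HOXB3, HOXB5, HOXB6 and HOXB8 lie at -1.42 or lower, and HOXD1 lies highest at 2.14.

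Among the 9 TALE cofactors in input RNA, 2 were called higher and 2 lower, beside 30.9% and 30% of all genes. PBX3 was at 0.40 ± 0.06 and PKNOX1 at 0.14 ± 0.05, and MEIS3 was among those lower, at -0.70 ± 0.13. Of 10 tested noncoding transcripts of the clusters, 4 were called lower and 1 higher, beside the same shares. HOTAIRM1, a noncoding RNA of the HOXA cluster, was at -1.10 ± 0.11, and HOXA-AS2 and HOXA-AS3 were at -0.94 ± 0.14 and -0.91 ± 0.22.

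The subpolysomal comparison of CNOT1 with control siRNA is the one that chose the genes, and its values are a description. HOXB3 was at 53.2, 50.9, 62.7 and 63.8 CPM with control siRNA and at 14.8, 13.4, 11.9 and 19.1 with CNOT1 siRNA, a log2 fold change of -1.94. HOXB5 was at -1.68, HOXB6 at -1.61, HOXB8 at -1.25, HOXD10 at -1.24 and HOXC9 at -1.004. HOXD10 was at 25.3, 21.7, 30.7 and 22.6 CPM with control siRNA and at 10.6, 10.1, 10.5 and 10.6 with CNOT1 siRNA. HOXD1 was at 0.98, HOXD8 at 0.47 and HOXD13 at 0.39. In this comparison 16 of 34 HOX mRNAs passed the threshold as lower and 3 as higher, beside 15.2% and 12.6% of 15823 genes. Nothing is read from these counts, since they come from the values that chose the genes. The control siRNA subpolysomal libraries enter both this comparison and the polysomal to subpolysomal ratio above.

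In polysomal RNA the same comparison depended on the labels of replicate 3. With all 8 libraries as labelled, edgeR called 0 HOX mRNAs, and 0 of 14474 genes in all, or 0% in each direction. At an unadjusted p under 0.05 HOXD8 was the 1 HOX mRNA higher and 0 were lower, and DESeq2 called 0. The share of all genes at that p is not given here. Without both replicate 3 libraries, edgeR called 18 of 34 lower and 2 higher, against 18.9% and 21.8% of 14514 genes.

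HOXB3 was at 16.3, 12.1 and 14.7 CPM in control polysomal replicates 1, 2 and 4 and at 5.66, 4.58 and 5.67 with CNOT1 siRNA, while replicate 3 gave 4.83 as labelled control and 16.4 as labelled CNOT1 siRNA. With all libraries the log2 fold change was -0.57, and without both it was -1.44. These are given as values only, since the lysates are those of the comparison that chose HOXB3, although it is counted among those lower without both. Without both, HOXB9 was at -1.39 ± 0.10, HOXB5 at -1.34 ± 0.20, HOXB8 at -1.30 ± 0.17, HOXB6 at -1.29 ± 0.17 and HOXD9 at -1.02 ± 0.21, all called lower. HOXD1 at 1.98 ± 0.29 and HOXD8 at 0.49 ± 0.18 were the 2 called higher. These are the genes at both ends of the input comparison. Input and polysomal RNA came from the same lysates, so the polysomal values are not an independent measurement of those changes.

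**Figure D5:**
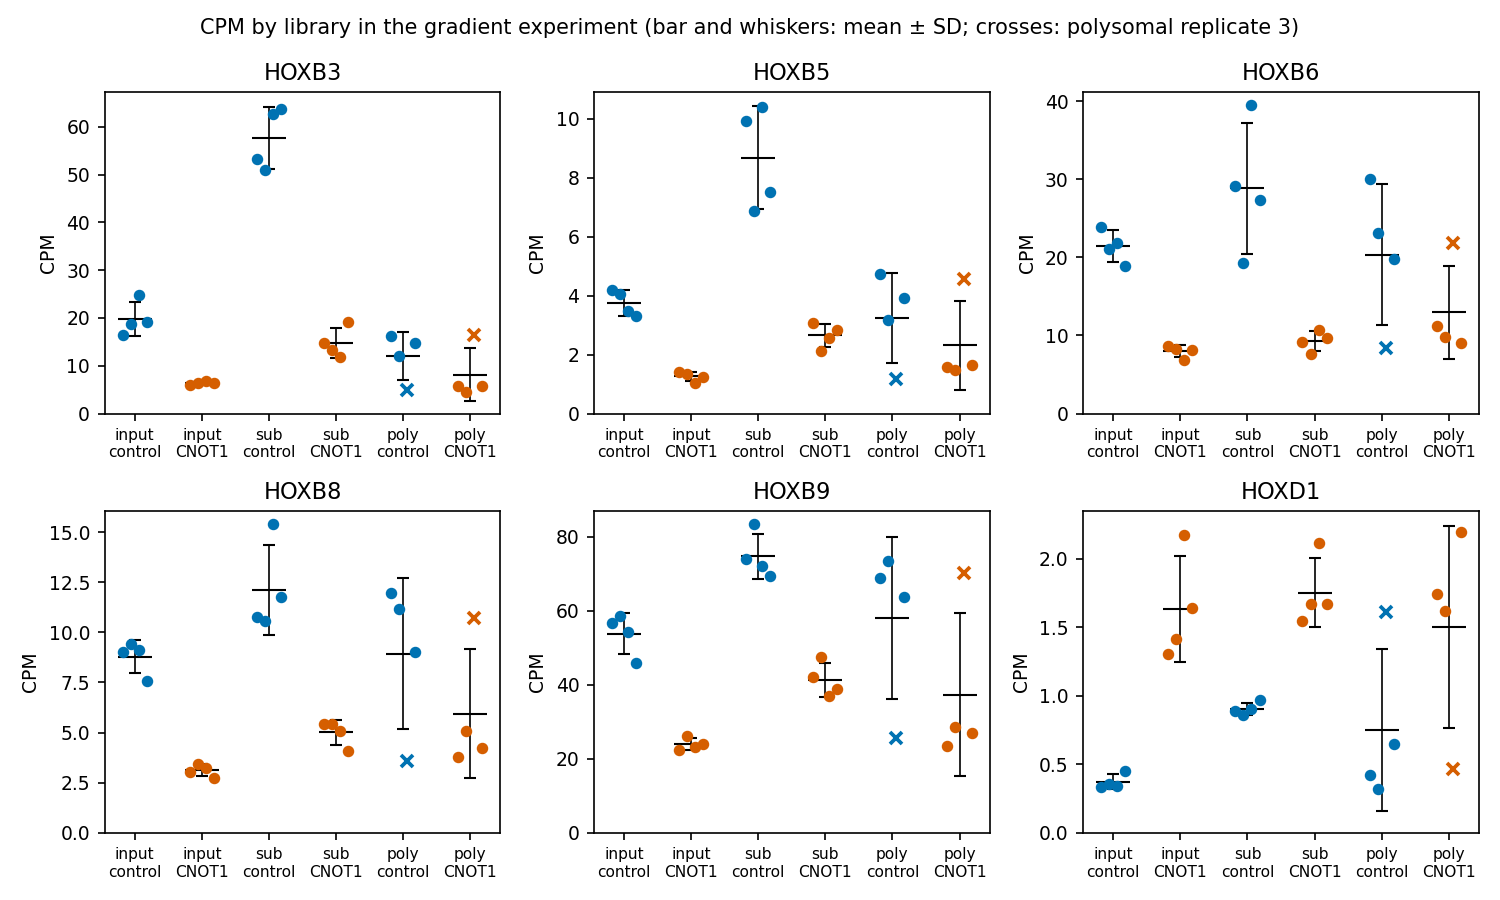
CPM of HOXB3, HOXB5, HOXB6, HOXB8, HOXB9 and HOXD1 in each of the 24 gradient libraries, with mean ± SD per group of 4. Blue points are control siRNA, orange points CNOT1 siRNA, and crosses mark polysomal replicate 3, whose CNOT1 level went against its label. In each panel the crosses lie with the opposite polysomal group.

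Whether CNOT1 siRNA changed the polysomal to subpolysomal ratio was tested as an interaction over 16 libraries. With all of them, edgeR called 0 HOX mRNAs, against 0.576% of 16506 genes higher and 0.376% lower. At an unadjusted p under 0.05 there were 6 higher and 0 lower, and DESeq2 called HOXC4, HOXD3 and HOXD10 higher. No share of all genes is given here for the unadjusted p or DESeq2 counts, so nothing is read from them. Without both replicate 3 libraries, 2 of 35, or 5.71%, were called higher and 0 lower, against 5.47% and 3.97% of 16805 genes. The share called higher was thus near that of all genes. The 2 were HOXD3 at 1.53 ± 0.30 (edgeR FDR 0.00613) and HOXD10 at 0.73 ± 0.21 (edgeR FDR 0.0412). The interaction uses the subpolysomal libraries that chose the genes, so HOXB3 is given as a value only, 1.39 with all libraries and 0.53 without both.

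HOXD3, a paralogue of HOXA3 and HOXB3, was at 9.07, 8.04, 9.11 and 10.3 CPM in control subpolysomal RNA and at 4.19, 4.66, 3.28 and 6.43 with CNOT1 siRNA. In polysomal RNA, replicates 1, 2 and 4 were at 2.16, 1.71 and 2.19 CPM with control siRNA and at 2.83, 3.49 and 2.60 with CNOT1 siRNA. Its subpolysomal libraries were all lower and these polysomal libraries all higher with CNOT1 siRNA, but neither the polysomal difference, at 0.54 ± 0.20 (edgeR FDR 0.0503), nor that in input passed the test.

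The TNRC6 experiment asked the same of the adaptors that bring Ccr4-Not to microRNA targets. With 2 libraries per group, edgeR called 0 of 34 HOX mRNAs and 0 of 14064 genes, or 0% in each direction. At an unadjusted p under 0.05, 173 genes were higher and 116 lower, 1 of them, HOXC13, a HOX mRNA that was lower, and DESeq2 called 0 HOX mRNAs and 8 other genes. Same-numbered libraries deviated together here, with r of 0.821. With the replicate block edgeR called 4 HOX mRNAs lower. No share of all genes under the block is given here, so nothing is read from that count. HOXB3 was at 14.7 and 20.7 CPM with control siRNA and at 17.0 and 18.1 with TNRC6A/B siRNA, a log2 fold change of -0.01 ± 0.29 (edgeR FDR of 1). HOXC13 had the lowest value of the well-counted mRNAs, at -1.19 ± 0.41, from 4.56 and 2.62 CPM to 1.58 and 1.59.

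The mRNAs with a miR-196 seed match are listed here for the TNRC6 experiment because the sequence feature does not rest on these counts. HOXA9 went from 37.9 and 55.5 CPM to 63.1 and 61.2, and HOXA5 from 16.8 and 16.2 to 25.9 and 20.1. HOXC8 went from 8.12 and 5.50 CPM to 13.3 and 7.45, with overlap. Values of single libraries are shown only for mRNAs of this set that rose, and not all of the set did. The 7 such mRNAs had a median log2 fold change of 0.41, between -0.25 for HOXB13 and 0.61 for HOXC8, with 5 above 0. The 20 well-counted mRNAs with neither seed match, HOXB8 left out, had a median of -0.32 with 6 above 0, and the 3 with a miR-10 match had a median of -0.01. The same medians for miR-196 matches and for neither match were 0.19 and 0.44 in the eIF4A2 IP, 0.58 and 0.48 in the eIF4A1 IP, 0.64 and 0.39 in the DDX6 IP, and -0.39 and -0.48 in input after CNOT1 siRNA. In the TNRC6 comparison HOXB8 was at 0.12 ± 0.44 and no mRNA of any set passed the test without the block. The differences between the sets were not tested in any comparison.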

How the data were processed

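HEK293 poly(A) RNA was sequenced in 40 libraries of 12 groups. The deposited files hold raw counts per gene symbol, which the authors made from strand-specific libraries (bcl2fastq 2.0, TopHat2 on hg19, htseq-count). The strand option was not given in the sources used here. A further deposited table with the authors' own comparisons (log2 fold changes and mean CPM, a likelihood ratio score, p-value and FDR) was not used.

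Counts were filtered with filterByExpr, scaled by TMM and tested with edgeR 4.0.16 (quasi-likelihood, R 4.3.3), with Benjamini-Hochberg FDR under 0.05 over all genes tested. The IP fit used all 12 libraries, gradient comparisons only the 8 compared, the interaction 16 and the TNRC6 comparison 4. CPM used the TMM sizes of each experiment. SE was the log2 fold change over the root of F. The scripts were tested on simulated data. Alternatives tried were a replicate block, DESeq2 1.42.0, scaling by RLE, testing without the filter, other sets of libraries in the fit, leaving out each library, and leaving out both polysomal replicate 3 libraries, whose CNOT1 level went against their labels. The block without both of those was added after the data were seen.

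Genes with a mean of at least 50 counts over the 40 libraries were called well-counted and are named, except that some items are not reported here. Per comparison, called genes were named, or the 6 with the largest change where more than 6 were called, HOXB3 was always named, and further genes were named after their values were seen. Members and lists were chosen with earlier results of these data known. Same-numbered libraries deviated together among the IP and total RNA groups, with r of 0.138 to 0.628 over 18 pairs, and in input and in subpolysomal RNA between the siRNAs, but not in comparisons with polysomal RNA. Those of the TNRC6 experiment did so too, with r of 0.821 in both pairs, which are not independent with 2 libraries per group. Replicate numbers come from the titles. UTRs and positions came from GENCODE 44 on GRCh37, and miRNA sequences from RefSeq on GRCh38.p14. Replicate libraries of a group differed by more than counting error. The closest pair, control siRNA input replicates 1 and 2, had a chi-square of 5.485 per degree of freedom. With 15.4 to 46.0 M counts per library, members under 50 counts are the least precise.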

Additional observations from a re-analysis of the deposited data

Results flagged for a closer look

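In groups of 4 gradient libraries, 48 sets of values were screened for a library far from its 3 fellows, and 5 were found, where chance gives about 1 in 20. Of these, 4 were in the library labelled CNOT1 siRNA polysomal replicate 3, whose CNOT1 level went against its label. HOXB3 was at 16.37 CPM there and at 4.585 to 5.674 in the other 3 libraries. HOXB5 was at 4.559 against 1.485 to 1.638, HOXB6 at 21.82 against 8.99 to 11.15, and HOXB9 at 70.1 against 23.3 to 28.6. HOXD10 in CNOT1 siRNA subpolysomal replicate 2 was at 10.07 CPM, against 10.54 to 10.63 in the others.

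The change in the polysomal to subpolysomal ratio with CNOT1 siRNA passed the interaction test of edgeR without both polysomal replicate 3 libraries for HOXD10, at 0.7334, and HOXD3, at 1.5327 on the log2 scale. With all libraries, neither passed it, at 1.03 ± 0.28 (edgeR FDR 0.0867) and 1.21 ± 0.33 (edgeR FDR 0.0904). Without both, the HOX share called higher was 5.71%, near the 5.47% of all genes. This test shares the subpolysomal libraries with the comparison that chose the genes.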

How the results depend on the processing

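Of the values of named HOX mRNAs under the alternatives, 878 were kept, 82 lost the call, 2 gained one, 3 moved and 9 changed sign. Kept means the same direction and side of the threshold where a test is given. No test is given in the subpolysomal comparison or for HOXB3 in the interaction. There, kept means the same direction and a shift under the SD between libraries, and moved means a larger shift. The cause of each change below was not tested. With the replicate block, 4 were lower in the eIF4A2 IP, 2 higher and 5 lower between eIF4A2 and eIF4A1, and 7 lower between eIF4A2 and DDX6. The same block gave 1 higher in the polysomal to subpolysomal ratio of control siRNA cells and 2 in that of CNOT1 siRNA cells, where numbers did not pair libraries. In the TNRC6 comparison, where same-numbered libraries deviated together with r of 0.821, it gave 4 lower. Elsewhere it moved no count by over 1.5 times. No share of all genes is given here beside the block counts, so nothing is read from them.

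DESeq2 called 1 higher between eIF4A2 and eIF4A1 and 3 in the interaction. Without the low-count filter, 2 were lower between eIF4A2 and eIF4A1, 4 lower between eIF4A2 and DDX6 and 1 higher in the interaction. Fitting only the compared IP libraries left 1 lower between eIF4A2 and DDX6. One fit over all gradient libraries gave 1 higher in input and 3 higher in the interaction. Without both polysomal replicate 3 libraries, 18 were lower and 2 higher in polysomal RNA and 2 higher in the interaction. The replicate block without both gave 3 higher and 14 lower in the ratio of CNOT1 siRNA cells, 3 and 19 in polysomal RNA and 4 and 1 in the interaction.

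Leaving out single libraries gave these ranges of HOX mRNAs called higher and lower. For eIF4A1 they were 15 to 21 and 0 to 2, for eIF4A2 11 to 19 and 2 to 3, for DDX6 14 to 16 and 2 to 4, and for eIF4A2 against DDX6 3 to 7 and 0 to 3. For the polysomal ratio they were 1 to 4 and 11 to 12 with control siRNA, and 3 to 4 and 8 to 12 with CNOT1 siRNA. For CNOT1 siRNA they were 1 to 3 and 20 to 23 in input, 1 to 3 and 13 to 17 in subpolysomal RNA, where they describe the values that chose the genes, and 0 to 2 and 0 in the interaction. The remaining comparisons stayed at 0.

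HOXB3 changed sign in the eIF4A2 IP with only the compared libraries, at 0.0341, and ranged from -0.12 to 0.14 when single libraries were left out. In the TNRC6 comparison it was 0.0263 by DESeq2, 0.0256 with RLE factors, 0.0547 without the filter and 0.0133 with the block, and ranged from -0.25 to 0.31 without single libraries, where the lone library of a group is assumed to vary like the other group. None of these values passed the test. Depth limits the 8 genes under 50 counts most, and 2 libraries per group limit the TNRC6 comparison.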
